A study of Mus musculus with 6 samples.

Results

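A set of 106 transcripts was already expressed in control C2C12 myoblasts and reached at least 50 CPM in every library after Setdb1 knockdown. CPM is the count of a transcript per 1000000 counts, summed over all transcripts of its library. The set was chosen by measured values, namely the CPM of all 6 libraries. A transcript had to reach at least 50 CPM in each siSetdb1 library and at least 5 CPM in each siCTRL library, and its lowest siSetdb1 value had to be at least 2 times its highest siCTRL value. Of the 55419 transcripts in the table, 109 met these criteria, and 106 were left after merging rows whose counts were the same throughout. The rise itself is therefore the reason for the choice and not a result, and the counts of calls and fitted changes given for these transcripts describe it without supporting it. Of the 3435 transcripts with distinct counts that reached 50 CPM in every siSetdb1 library, the 106 made up 3.09%.

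The data were RNA-seq libraries of C2C12 cells, a mouse myoblast line that proliferates in rich medium and fuses into myotubes when serum is withdrawn. There were 3 libraries from cells that received control siRNA (siCTRL) and 3 from cells that received siRNA against Setdb1 (siSetdb1), with siRNA at 33 nM and cells taken 72 h after the first transfection. For Setdb1 siRNA, the cells were transfected again at 24 h, and whether the control siRNA was also given again is not said. The cells are described as proliferating in the account of this experiment, while the treatment given with the libraries has differentiation starting after the first transfection, so their stage is not settled by these sources. Nothing says whether the 3 libraries of a condition came from separate cultures, and their spread may be technical. The totals ran from 98100142 to 228871500 counts in siCTRL and from 169000002 to 201448932 in siSetdb1.

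Setdb1 is a lysine methyltransferase that places trimethylation on lysine 9 of histone H3, a mark read by HP1 proteins and found on silent genes and on repeats. It is brought to its targets by KRAB zinc finger proteins through Trim28, and it restrains endogenous retroviruses in embryonic stem cells. Transcripts that rise when Setdb1 is reduced can include both direct targets and genes further downstream, and RNA counts alone do not separate these. The deposited tables list UCSC transcript identifiers without gene symbols, so the transcripts are described here by identifier, by rank and by level. The level of Setdb1 itself after knockdown, the muscle markers and the other gene lists were not analysed here for the same reason, so the knockdown and the cell type have no check in these counts.

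In control cells the 106 transcripts were moderately expressed, and they lay among the more highly counted transcripts after knockdown, as the criteria require. Their median level was 48.9, 45.2 and 46.2 CPM in siCTRL replicates 1 to 3. It was 174, 180 and 130 CPM in siSetdb1 replicates 1 to 3. In the order of all transcripts with distinct counts, the median place of the set was between 4463 and 4864 in the siCTRL libraries and between 764 and 1084 in the siSetdb1 libraries. Between 16 and 17 of the 106 were among the first 1000 in a siCTRL library, against 61, 65 and 48 in siSetdb1 replicates 1 to 3. The rise in place follows in large part from the criteria and is not a result. Only 3435 of the 36590 transcripts with distinct counts reached 50 CPM in every siSetdb1 library. CPM is not corrected for transcript length, so these places order the reads and not the number of molecules. The smallest count of any of these transcripts in any library was 972, for which counting error alone is 3.21% of the value.

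**Figure D1:**
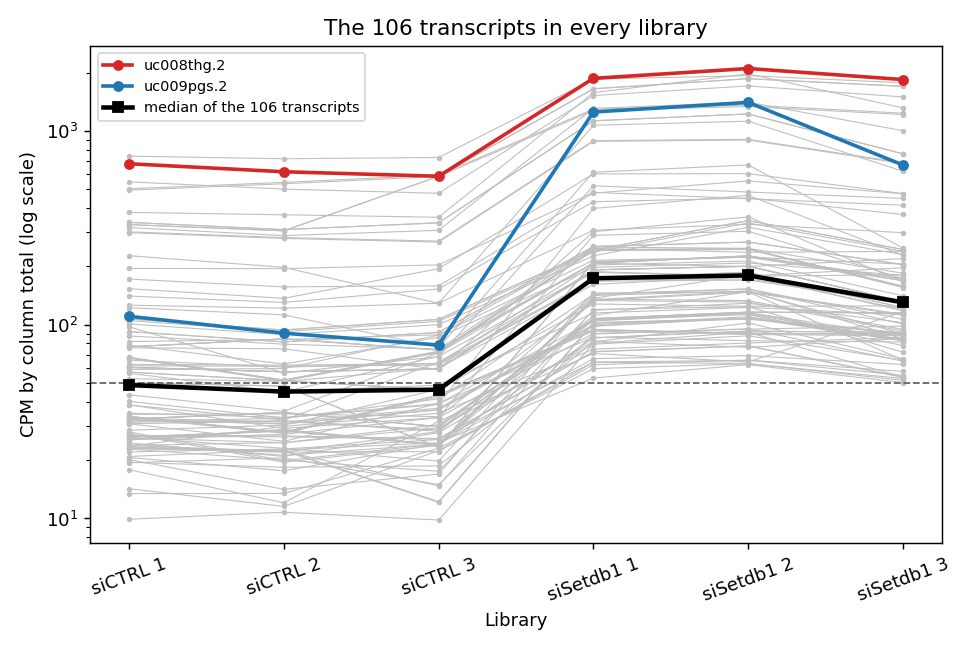
CPM (log scale) of the 106 transcripts in each of the 6 libraries, with 1 grey line per transcript, the 2 named transcripts in colour, the median of the set in black and the 50 CPM level as a dashed line. The median was 48.9, 45.2 and 46.2 CPM in siCTRL and 174, 180 and 130 CPM in siSetdb1 replicates 1 to 3.

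Together the 106 transcripts took 1.05% ± 0.0508 of the counts of a siCTRL library (SD, n = 3) and 3.55% ± 0.460 of those of a siSetdb1 library (SD, n = 3). In the siCTRL libraries this share was 1.06%, 1.00% and 1.10%. In the siSetdb1 libraries it was 3.64%, 3.95% and 3.05%. Every siSetdb1 library was thus above every siCTRL library, as the choice of the transcripts requires, and siSetdb1 replicate 3 had the smallest share of its condition. Since rows with the same or nearly the same counts occur, these shares may count some reads more than once.

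The name given to the set, transcripts becoming abundant, held for part of it. While 51 of the 106 were under 50 CPM in all 3 siCTRL libraries and crossed this level after knockdown, 48 were at or above 50 CPM in all 3 siCTRL libraries already. The other 7 were above the level in some siCTRL libraries and under it in others. At the lower end, 21 transcripts had a siCTRL mean under 25 CPM, with a median ratio of siSetdb1 to siCTRL means of 5.01. At the upper end, 13 transcripts had a siCTRL mean of 200 CPM or more, with a median ratio of 3.10, from a median of 406 CPM in siCTRL to 1297 CPM in siSetdb1. The classes between them had medians of 3.36 (33 transcripts with 25 to 50 CPM), 2.97 (29 with 50 to 100 CPM) and 2.83 (10 with 100 to 200 CPM). A transcript with a low siCTRL mean needs a larger ratio to reach 50 CPM, so a fall of the ratio with the siCTRL level is in part built into the criteria.

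The lower limit in siCTRL removed nothing. All 3435 transcripts with distinct counts and at least 50 CPM in every siSetdb1 library also had at least 5 CPM in every siCTRL library. The lowest siCTRL value of any member was 9.82 CPM, in a transcript that reached 53.6 CPM or more in each siSetdb1 library. No transcript therefore went from under 5 CPM in a siCTRL library to 50 CPM or more in all siSetdb1 libraries.

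**Figure D2:**
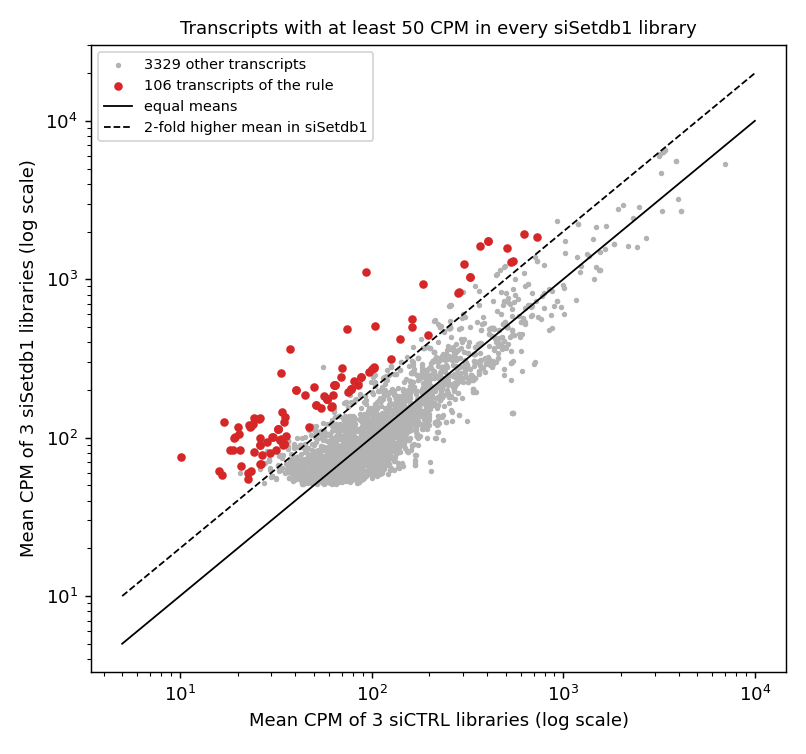
Mean CPM of the 3 siSetdb1 libraries against mean CPM of the 3 siCTRL libraries (both log scales) for transcripts with at least 50 CPM in every siSetdb1 library, with the 106 transcripts of the set in red, the others in grey, equality as a solid line and a 2-fold difference as a dashed line. The set spans siCTRL means from 10.2 to 730 CPM, and all its ratios of means lie between 2.26 and 11.9.

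Across the set, the ratio of siSetdb1 to siCTRL means had a median of 3.20, with quartiles at 2.71 and 4.22. By the criterion itself, the lowest siSetdb1 over the highest siCTRL value, the median was 2.31 and the quartiles 2.17 and 3.03, so the set was crowded near its limit. There were 28 transcripts that reached at least 3 and 7 that reached at least 4. Just inside the limit lay transcripts with ratios of 2.003, 2.006 and 2.012, and just outside lay 3 with ratios of 1.988, 1.989 and 1.989, whose lowest siSetdb1 values were all about 92.2 CPM. At the limit of 50 CPM, the members just inside had lowest siSetdb1 values of 50.3, 51.6 and 52.8 CPM, and the transcripts just outside had 49.4, 49.4 and 49.5 CPM. Among transcripts with the 2-fold criterion met, a further 32 had a lowest siSetdb1 value from 25 to 50 CPM.

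The transcript with the highest mean siSetdb1 CPM was uc008thg.2. Its level was 677, 616 and 584 CPM in siCTRL replicates 1 to 3 and 1869, 2101 and 1842 CPM in siSetdb1 replicates 1 to 3. The mean went from 626 ± 47.6 CPM (SD, n = 3) to 1937 ± 142 CPM (SD, n = 3). That the groups lie apart is required by the criteria. The log2 fold change fitted in edgeR for uc008thg.2 was 1.81 (standard error 0.13). It rests on between 66457 and 376420 counts per library. The 3 siSetdb1 values lay close together, with a coefficient of variation of 7.35%.

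The transcript with the largest ratio of lowest siSetdb1 to highest siCTRL value, 6.03, was uc009pgs.2. Its level was 111, 90.4 and 78.5 CPM in siCTRL replicates 1 to 3 and 1253, 1404 and 667 CPM in siSetdb1 replicates 1 to 3. The means were 93.2 ± 16.2 CPM (SD, n = 3) and 1108 ± 389 CPM (SD, n = 3). In siSetdb1 replicate 3 it was at 50.2% of the mean of replicates 1 and 2, which is the main part of its wide SD. Within the pairs of libraries that share a number, the ratio was 11.3, 15.5 and 8.49, and the fitted log2 fold change of uc009pgs.2 was 3.76 (standard error 0.34). Among the 106 it held rank 10 by mean siSetdb1 CPM, and the 9 transcripts above it all had siCTRL means of at least 304 CPM.

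The second largest ratio, 5.67, belonged to the transcript ranked 22 by siSetdb1 CPM. It had 40.2, 33.0 and 38.8 CPM in siCTRL and 399, 465 and 228 CPM in siSetdb1, again lowest in siSetdb1 replicate 3. The 5 further transcripts with a ratio of at least 4 were at ranks 19, 29, 64, 69 and 98. Of these, the one at rank 19 had 97.6, 56.4 and 68.4 CPM in siCTRL and 521, 484 and 448 CPM in siSetdb1, with its siSetdb1 libraries close together. All 7 stood alone, without another member of like profile (defined further on). These transcripts are singled out by their ratio and given by rank, since identifiers without gene symbols say little of their function.

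At the top of the order by siSetdb1 CPM, the spread between libraries differed from transcript to transcript. The transcript ranked 2 had the highest siCTRL level of the set, 741, 719 and 730 CPM, and 1852, 1930 and 1772 CPM in siSetdb1, and its replicates were close in both conditions. At rank 3, siCTRL was uneven, with 329, 305 and 583 CPM, while siSetdb1 was even, with 1651, 1861 and 1700 CPM. At rank 5 the reverse was seen, with 380, 369 and 359 CPM in siCTRL and 1577, 1971 and 1315 CPM in siSetdb1. The transcript ranked 17 had 122, 112 and 76.3 CPM in siCTRL and 612, 668 and 249 CPM in siSetdb1, so that its siSetdb1 replicate 3 stood at 38.8% of the mean of the other two. It had the highest coefficient of variation in siSetdb1, 44.7%, and with a ratio of 2.03 it was close to leaving the set.

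**Figure D3:**
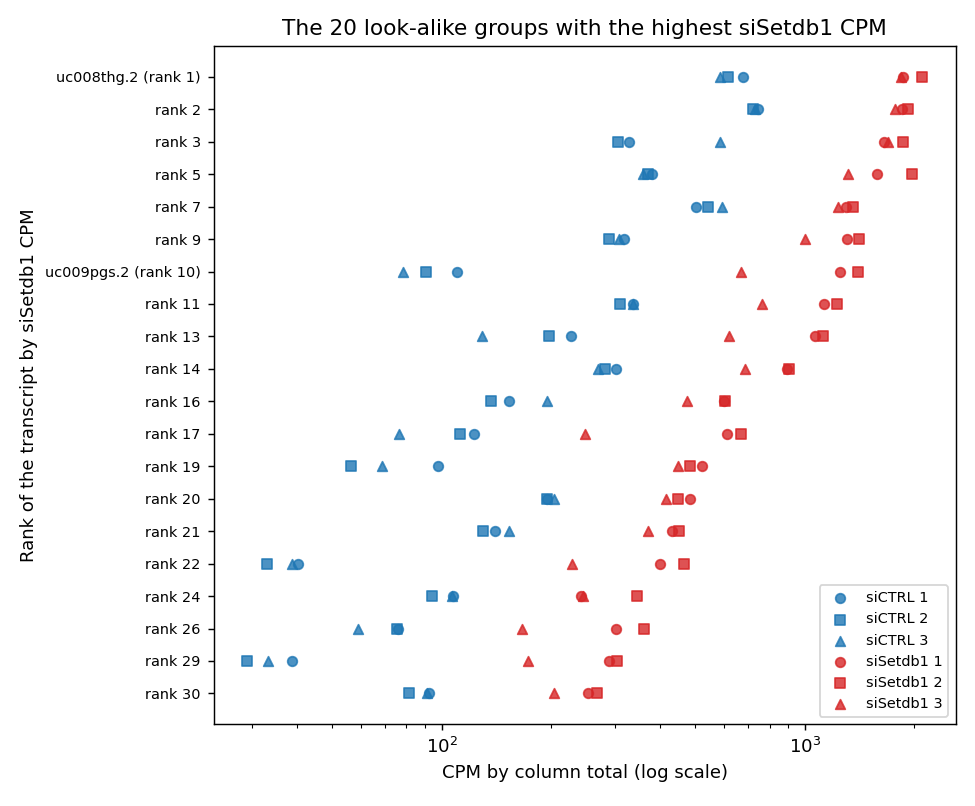
CPM (log scale) in every library for the top transcript of each of the 20 look-alike groups with the highest siSetdb1 CPM, named by rank, with siCTRL in blue, siSetdb1 in red and a symbol for each replicate number. siSetdb1 replicate 3 (red triangle) falls away most at rank 17 (249 CPM against 612 and 668) and for uc009pgs.2 (667 against 1253 and 1404).

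The 106 transcripts are fewer than 106 independent signals. UCSC lists several transcripts for many genes, and such transcripts can share exons. Members were called look-alikes where the ratio between their CPM values moved by at most 0.1 on the log2 scale (7.18%) over the 6 libraries, and were joined into groups through shared look-alikes. This gave 62 groups, of which 37 held a single transcript and 25 held at least 2, with 69 transcripts in all. There were 16 groups of 2, 3 groups of 3, 2 groups of 4 and 4 groups of 5. Of the 76 look-alike pairs, 57 had identifiers at most 10 rows apart in the table, which is sorted by identifier. The other 19 pairs had identifiers more than 1000 rows apart. In 25 pairs the CPM differed by at most 1% in every library. Whether the transcripts of a group come from 1 gene was not tested. With 1 transcript per group, the set took 0.643% of the counts of a siCTRL library and 2.28% of those of a siSetdb1 library on average.

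The groups of 5 had different profiles. In one, with siCTRL means between 26.7 and 35.8 CPM, the ratio of means was between 2.87 and 2.91 and siSetdb1 replicate 3 stood between 78.5% and 80.1% of replicates 1 and 2. In another, the ratio was between 2.95 and 2.97 and siSetdb1 replicate 3 stood between 67.2% and 67.6%. In the third, the ratio was between 3.42 and 3.47 and replicate 3 was level with the others, at 102% to 103%. In the last, the ratio was between 2.61 and 2.64, at 96.4% to 97.0%. This last group borders the 3 transcripts just outside the 2-fold limit by identifier.

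In siSetdb1, replicate 3 was the low library for most of the set. It was the lowest of the 3 siSetdb1 libraries for 86 of the 106 transcripts (81.1%) and for 51 of the 62 look-alike groups (82.3%, with 1 transcript per group). The criteria read the lowest siSetdb1 value, so they bear on this measure, but they do not name the library. Among the 6411 other transcripts with distinct counts that were higher after knockdown, replicate 3 was the lowest library in 52.6%. Among the 3329 others at the same levels (at least 50 CPM in every siSetdb1 library) it was the lowest in 50.6%. Among all 32433 tested transcripts with distinct counts it was the lowest in 30.3%. As a level, siSetdb1 replicate 3 stood at a median of 79.6% of the mean of replicates 1 and 2 in the set. It was 95.2% in the other higher transcripts, 97.2% in the others at the same levels and 108% over all tested transcripts. The sets compared were not matched for the size of the change. The median log2 fold change was 1.86 in the set, 0.72 in the other higher transcripts and 0.17 in the others at the same levels. Whether the lower values in replicate 3 go with the size of the change was not tested. The shares and levels of replicate 3 use library totals. The TMM factors (library scaling in the edgeR fit) were 0.931, 0.903 and 0.989 in siSetdb1 replicates 1 to 3. Applying them would lower replicate 3 against replicates 1 and 2 in each of these sets, which was not computed. Replicate 2 was the highest siSetdb1 library for 86 of the 106 and for 48 of the 62 look-alike groups. It was the highest for 2904 of the 6411 other higher transcripts, 1384 of the 3329 at the same levels and 8212 of all 32433. In the set, replicates 1 and 2 differed from each other by a median of 6.60% and by at most 42.3%.

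**Figure D4:**
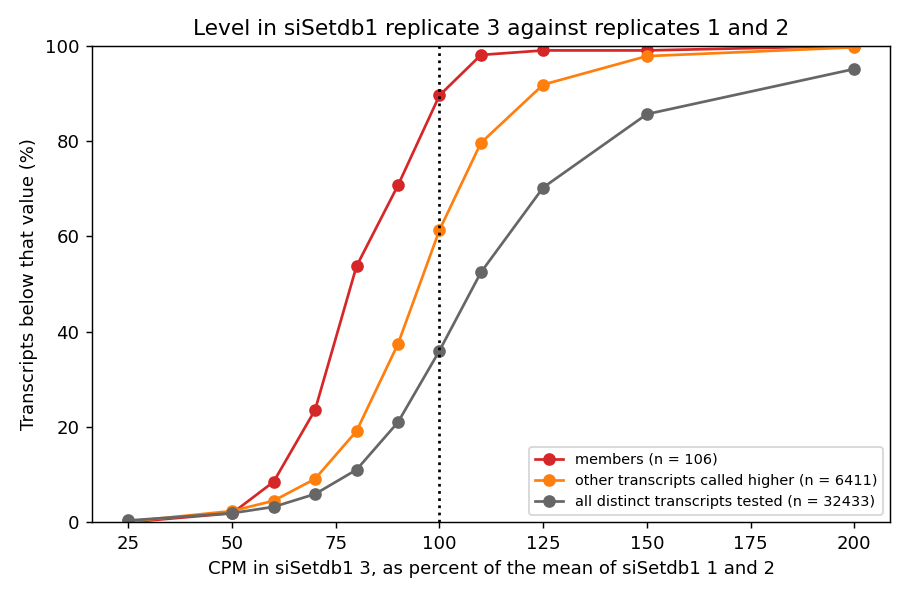
Cumulative share of transcripts (%) against the CPM in siSetdb1 replicate 3 as a percentage of the mean of replicates 1 and 2, for the 106 transcripts of the set, the 6411 other transcripts called higher and all 32433 tested transcripts with distinct counts. At 100% or under lie 89.6% of the set, 61.4% of the other higher transcripts and 36.0% of all tested transcripts.

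The deficit in siSetdb1 replicate 3 was uneven across the set. In 38 transcripts, replicate 3 was under 75% of the mean of replicates 1 and 2, and in 2 it was under 50%. Under 50% lay 1.89% of the set, 2.36% of the other higher transcripts and 1.91% of all tested transcripts, so the set did not stand out there. Under 70% lay 23.6%, 9.11% and 5.92%. In 29 members, replicate 3 was within 10% of the mean of replicates 1 and 2, and in 11 it was above it. The largest excess was that of the transcript ranked 91, with 71.0, 64.3 and 117 CPM in siSetdb1, which also had its highest siCTRL value in replicate 3 (17.8, 12.1 and 31.8 CPM). Ordered by the siCTRL libraries, the 10 transcripts whose siCTRL replicate 3 was under 80% of replicates 1 and 2 had siSetdb1 replicate 3 at a median of 64.6%. The 21 transcripts in which it was more than 25% above replicates 1 and 2 had a median of 96.9%, and the 75 between these limits one of 78.5%. This order is in part fixed by the choice, since a transcript with a high siCTRL replicate 3 and a low siSetdb1 replicate 3 would miss the 2-fold limit.

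Within the pairs of libraries that share a number, the median ratio of siSetdb1 to siCTRL was 3.27 for replicate 1, 3.63 for replicate 2 and 2.55 for replicate 3. The criteria fix a ratio of at least 2 in every pair. The ratio was smallest in pair 3 for 87 of the 106. In the other higher transcripts, the median ratios of pairs 1 to 3 were 1.496, 1.519 and 1.335, so pair 3 was lowest there too. They were 0.994, 1.005 and 0.999 in the others at the same levels, and 0.896, 0.854 and 0.897 over all tested transcripts with distinct counts. In these last sets pair 3 was not the lowest.

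The same criteria were also applied to 2 replicate numbers at a time, as a description of how each pair sets the size of the set. They chose 117 transcripts on replicates 2 and 3, 113 on replicates 1 and 3, and 253 on replicates 1 and 2. Each of these choices holds the 106 by construction, which are at least 2-fold higher in the pair left out because the full criteria require it. Of the 253, 150 were at least 2-fold higher in pair 3, and the ratio in that pair ran from 1.47 to 8.49. The number chosen thus rose most when the libraries numbered 3 were left out. Without siSetdb1 replicate 3 alone, 84 transcripts would join. Their level in siSetdb1 replicate 3 was between 37.3% and 95.7% of replicates 1 and 2. Without siCTRL replicate 3 alone, 60 would join, in which that library stood between 113% and 200% of siCTRL replicates 1 and 2. Both directions are fixed by the criteria, which read the lowest siSetdb1 and the highest siCTRL value.

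All 106 transcripts passed the filter on low counts and were higher after knockdown at an adjusted p-value under 0.05 in edgeR (quasi-likelihood, Benjamini-Hochberg). Over the 34247 transcripts tested, 20.2% were higher at this threshold, and 2.37% had the lowest siSetdb1 value at least 2 times the highest siCTRL value. Since the members were chosen on the same contrast, nothing is read from this count or from those at the stricter threshold given next. Under an adjusted p-value of 0.001 in the same edgeR test, 70 of the 106 were called, where 1.51% of all transcripts were. With the replicate number as a block, all 106 were called at 0.001, against 9.64% of all transcripts, and with DESeq2 all 106, against 11.7%. The median log2 fold change of the set was 1.86, with quartiles at 1.62 and 2.27, beside -0.00 over all transcripts tested. Scaling by library totals alone moved the median of all transcripts to -0.18 and that of the set to 1.68, so the CPM ratios given here, which use library totals, are lower than the fitted changes.

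At the same siSetdb1 level, higher transcripts were not confined to the set. Of the 3435 transcripts with at least 50 CPM in every siSetdb1 library, 1314 (38.3%) were higher after knockdown in the edgeR test at an adjusted p-value under 0.05, and 362 (10.5%) were lower. A limit on the siSetdb1 level favours higher transcripts, so this balance is not compared further. The same criteria with the conditions exchanged, at least 50 CPM in every siCTRL library and a fall of at least 2-fold, chose 64 transcripts. This number rests on library totals, with which the median log2 fold change of all transcripts was -0.18. How many transcripts reached 50 CPM in every siCTRL library is not given here, so the 64 is not compared with the 106.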

How the data were processed

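Polyadenylated RNA was sequenced from stranded libraries. Per UCSC transcript, whole-number counts were deposited without normalization, made by the authors with TopHat 1.4.1.1 (mm9) and HTSeq-count. The methods state the strand setting "-s yes" for a kit whose reads come from the strand opposite to the RNA. Whether the counts are of the sense strand was not tested. A further deposited table, with normalized counts, fold changes and p-values of the authors' own comparison, was not used. Samples were grouped by siRNA, from their titles.

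CPM was computed on column totals. Changes were fitted for 34247 transcripts with edgeR 4.0.16 (R 4.3.3, limma 3.58.1): TMM factors, filterByExpr, quasi-likelihood test without covariates, Benjamini-Hochberg adjustment. TMM factors were 1.04 to 1.10 in siCTRL and 0.903 to 0.989 in siSetdb1. Alternatives used DESeq2 1.42.0, other factors, filters and limits, a replicate block and each library left out. Same-numbered libraries deviated together (r of 0.250, 0.458 and 0.670 across transcripts) and were taken as pairs by the numbers in their titles. Libraries 1 and 2 also deviated together across numbers (r of 0.384 and 0.407, above the 0.250 of the pair numbered 1), so the correlations set number 3 apart and do not separate 1 from 2. Deviations were taken from the mean of each condition, which ties the correlations to each other. Positive values among libraries 1 and 2 can therefore follow from a shared departure of the libraries numbered 3. Fits were tested on simulated data. Figures used Python 3.11.15 and matplotlib 3.10.9.

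The members and lists were chosen with earlier results of these data known. The 2 named transcripts are those with the highest siSetdb1 CPM and with the largest ratio. Ranks given after them were picked once their values were seen. Analyses of gene lists and markers needed gene symbols and were not done. The look-alike groups, the choice on 2 replicate numbers and the threshold of 0.001 with DESeq2 or a block were added after seeing the data.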

Additional observations from a re-analysis of the deposited data

How the results depend on the processing

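All 106 transcripts were called higher at an adjusted p-value under 0.05 in every alternative fit run (DESeq2, RLE and upper-quartile factors, library totals alone, both other filters, the replicate block and each library left out), which their choice on the same libraries makes nearly certain and which says nothing of stability. At 0.001 without a block, edgeR called 70. Leaving out siCTRL replicate 1 or 2, or siSetdb1 replicate 1 or 2, brought this to 0, while 24 were left when siCTRL replicate 3 was dropped and 105 when siSetdb1 replicate 3 was. The median log2 fold change of the set stayed within the spread of the pairs (SD 0.26) in all fits, and with the replicate block it was 1.87. The block changed no call of a member at 0.05 and moved the count over all transcripts from 6913 to 9633. Over 13 alternatives each, fitted log2 changes lay between 1.63 and 1.88 (uc008thg.2) and between 3.53 and 4.05 (uc009pgs.2).

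The number of members depended on the scaling and the limits. It was 162 with TMM library sizes and 160 with DESeq2 size factors, in both cases with all 106 included. It was 311 at 1.5-fold, 28 at 3-fold and 68 at 100 CPM. With each library left out it ranged from 106 to 190, reaching 166 when siCTRL replicate 3 and 190 when siSetdb1 replicate 3 was dropped. Counting look-alikes once gave 62 transcripts with 0.643% (siCTRL) and 2.28% (siSetdb1) of the counts. Over all tested transcripts, the number higher was 516 at an adjusted p-value under 0.001 in edgeR, 4338 at 0.001 in DESeq2 and 3300 at 0.001 with the replicate block. With each library left out it ranged from 4318, without siSetdb1 replicate 1, to 7853 at 0.05. The causes of these shifts were not tested. Depth limits none of the members' values, whose smallest count was 972, but 3 libraries a condition limit the spread estimates.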

Other observations

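Within siSetdb1, the steadiest transcripts of the set were a neighbouring pair at ranks 32 and 63. The one at rank 63 had 126 ± 1.89 CPM in siSetdb1 and 35.1 ± 9.80 CPM in siCTRL (SD, n = 3). For the one at rank 32, siCTRL was at 58.8, 59.4 and 88.5 CPM and siSetdb1 at 248, 236 and 239 CPM. The uneven condition for this pair is thus siCTRL, with replicate 3 above the others. The median coefficient of variation of the set is 8.66% in siCTRL and 13.6% in siSetdb1. With 1 transcript per look-alike group it is 13.3% and 13.9%, so the conditions then differ little. In the others at the same levels (at least 50 CPM in every siSetdb1 library) it is 7.10% and 7.01%. It is 9.68% and 8.97% in the other higher transcripts and 10.6% and 12.1% over all tested transcripts with distinct counts. Both transcripts of the pair were picked after their values were seen.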
